A study of Rattus norvegicus with 12 samples.

Results

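PC12 cells, a line from a rat adrenal pheochromocytoma, were exposed to PACAP38 at 1e-07 M for 120 min, and their RNA was set against RNA of control cells carrying the same time in their labels. The values came from the 2 of 12 arrays in the series whose titles give this time, and every gene on the array was followed. Both groups were grown on a type IV collagen coat in medium with horse and fetal bovine serum, and the labels call the treatment PACAP-differentiated and the other RNA Control. The growth notes of the labels describe a multi-well plate, while the series text describes culture dishes. Each group was 1 pool of 6 RNA samples, and the same 2 pools were hybridized on both arrays, with PACAP38 in Cy5 on array 1 and in Cy3 on array 2. The comparison is therefore 1 pair of pools from 1 cell line, and no test between PACAP38 and control could be made. The folds of both arrays are given in place of an error, and they hold only technical spread. Both arrays lay on 1 slide of 4 arrays, together with those of 60 min.

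PACAP is a peptide of the VIP and secretin family that acts on chromaffin cells mainly through its receptor PAC1, encoded by Adcyap1r1. This receptor couples to adenylyl cyclase and phospholipase C, and the cyclic AMP and ERK signals that follow switch on CREB-dependent and other immediate early genes. PC12 cells resemble chromaffin cells, store catecholamines and peptides in dense-core vesicles, and extend neurites over days of treatment. A change in such RNA can come from fewer cells of a type or from less RNA per cell, which cannot be told apart here.

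On array 1, 45.7% of the gene spots were well above background with PACAP38 RNA and 42.8% with control RNA, and on array 2 these shares were 42.0 and 48.0%. No spot was saturated. Of 17700 genes with a symbol, 8705 were well above background in both RNAs on both arrays and are called measured here, while 9332 were so in at least 1 RNA and are called detected. A gene was counted as higher with PACAP38 when its fold was at least 2 and its spot p-value under 0.01 on both arrays, and as lower with a fold of at most 0.5 and the same p-value limit. The words higher and lower are kept for counted genes. In all 420 genes (2.37%) were higher and 431 (2.44%) lower. Among measured genes these were 317 (3.64%) and 375 (4.31%). Among detected genes 418 (4.48%) were higher and 431 (4.62%) lower, and these shares are the background for the counts of the gene groups. A gene dim in control could be detected through the PACAP38 RNA alone, so counts of detected genes describe the lists and rank none of them. Over the measured genes the median log2 fold was -0.08, and 3588 of 8705 lay above control.

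The higher genes reached larger folds than the lower ones. Of the 317 measured genes counted as higher, 204 changed 2- to 4-fold, 63 changed 4- to 8-fold and 50 changed 8-fold or more, with a median fold of 3.33. Of the 375 measured genes counted as lower, 344 changed 2- to 4-fold, 30 changed 4- to 8-fold and 1, Traf5, changed 8-fold or more, with a median fold of 0.394. The split depended on the background correction and normalization, which changed jointly: 49.4% of the counted genes were higher with the processed intensities, 67.1% (200 higher, 98 lower) with normexp correction and loess, and 57.9% (124 higher, 90 lower) with normexp and median centring. Fold sizes depended on it too: over the 235 counted genes followed by name or list, the size of the log2 fold fell by 0.85 at the median with normexp and loess, and by more than 1 for 108 of them. The log2 folds of both arrays differed by 0.2 at the median and by 0.71 at the 95th percentile of measured genes. Another 52 genes passed the limits in opposite directions on both arrays and were not counted. Genes lay close to the limit on either side: the smaller of both folds was 2.01 for Hr and Rab20 inside it and 1.97 for Idi1 outside it.

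**Figure D1:**
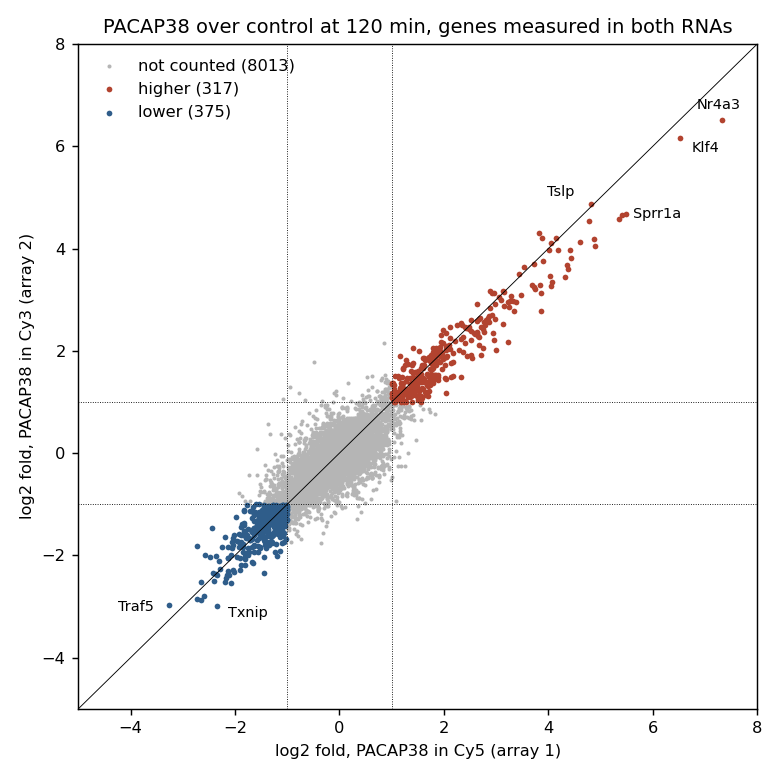
Log2 fold of PACAP38 over control at 120 min for the 8705 genes measured in both RNAs, with array 1 (PACAP38 in Cy5) on the x axis and array 2 (PACAP38 in Cy3) on the y axis, both without units. Each point is 1 gene, dotted lines mark the 2-fold limits, and the diagonal is equality: the 317 higher and 375 lower genes lie along it, and the higher ones extend further from 0.

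Several of the largest folds belonged to genes that are neither transcription factors nor signalling feedback genes. Sprr1a, which encodes a small proline-rich protein known from keratinocytes and regenerating neurons, gave processed intensities of 311 in control and 13200 with PACAP38 on array 1 and of 497 and 12600 on array 2, a fold of 32.8. Tslp, an epithelial cytokine, went from 373 to 10500 on array 1 and from 345 to 10100 on array 2, a fold of 28.8. Pkp2, encoding plakophilin, a desmosome protein, was at 3220 and 3820 in control and at 58200 and 59500 with PACAP38, a fold of 16.8. These 3 genes were chosen for their large folds, so PACAP38 values above control on both arrays are built in. Il1rn, the antagonist of the interleukin-1 receptor, was at 68.2 and 86.7 in control and at 1480 and 1210 with PACAP38, a fold of 17.4. Syt4, a synaptotagmin of dense-core vesicles, was at 1730 and 1910 in control and at 27900 and 29700 with PACAP38, a fold of 15.8. Among the 25 largest measured folds were also Ribc2 at 31.3, the sialidase gene Neu2 at 22.2, the splicing factor gene Cwc25 at 20.6, Iqub at 16.7 and Phlda1 at 16.2. All 10 genes stayed counted under normexp and loess, but with smaller folds, such as 14.9 for Sprr1a, 14.3 for Tslp, 4.31 for Il1rn, 6.81 for Ribc2, 8.24 for Neu2 and 2.95 for Iqub.

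At the other end, Traf5, an adaptor of TNF receptors, had the smallest measured fold. Its intensities were 535 in control and 55.7 with PACAP38 on array 1 and 466 and 59.1 on array 2, a fold of 0.115. G0s2, an inhibitor of triglyceride lipase, was bright in control at 24500 and 21400 and stood at 4040 and 3100 with PACAP38, a fold of 0.155. P2ry6, a receptor for extracellular UDP, was at 4070 and 3350 in control and at 648 and 581 with PACAP38, a fold of 0.166. The 25 smallest measured folds included Ankrd34a at 0.144, the RNA-binding factor Lin28a at 0.147, the kinase gene Pkdcc at 0.182, the transcription factor Ascl2 at 0.202, the DNA methyltransferase Dnmt3b at 0.211 and Palb2, a partner of Brca2, at 0.223. Pkdcc, Ascl2, Dnmt3b and Palb2 were not counted with normexp and loess, and Traf5, G0s2, P2ry6, Ankrd34a and Lin28a were.

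Where neither array read 1 of the RNAs well above background, only a bound of the fold can be given, set from the lowest signals that passed this flag. Each bound is for the mean of both arrays, and the fold of 1 array can fall short of it. Inhba, the activin subunit gene, was at 9.61 and 17.7 in control and at 24300 and 20200 with PACAP38, at least 762-fold higher. That bound belongs to 1 of 3 Inhba probes: another gave at least 62.2-fold, and the third, measured in both RNAs, a fold of 10.5 with array folds of 14.4 and 7.61. The bounds were set on processed intensities after Aquantile scaling between arrays, and with normexp and loess the 762-fold probe had a fold of 72.9. Crisp3, a cysteine-rich secretory protein gene, was at 55.0 and 12.6 in control and at 1060 and 1010 with PACAP38, at least 28.3-fold higher by the mean of both arrays, with array folds of 19.3 and 80.3 and a fold of 3.17 with normexp and loess. The other bounds among the 10 largest included at least 17.6-fold for Ankrd34c, with a fold of 14.9 on array 1, and at least 12.9-fold for the cytokine gene Il24. They also included at least 11.8-fold for the homeobox gene Dbx2 and at least 10.6-fold for Il10ra, a subunit of the interleukin-10 receptor. In the other direction Gpr132, a receptor gene, was at 175 and 149 in control and at 35.1 and 24.8 with PACAP38, at least 4.49-fold lower. By the mean of both arrays Sh2d3c was at least 4.34-fold lower, with array folds of 0.17 and 0.297. Lmln was at least 3.68-fold lower, with array folds of 0.223 and 0.289, and Jdp2, an AP-1 repressor, at least 2.26-fold. These 4 lower genes were not counted with normexp and loess, where they had folds of 0.75 for Gpr132, 0.753 for Sh2d3c, 0.839 for Lmln and 0.891 for Jdp2. Nor were Ankrd34c, Il24 and Dbx2 counted as higher, while Inhba, Crisp3 and Il10ra were.

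Immediate early transcription factors carried the highest median of the 44 gene lists followed. Of 32 detected genes, 18 were higher (56.2%) and 1 was lower, and the median log2 fold of the 28 measured was 2.38. Nr4a3, an orphan nuclear receptor, was at 72.5 and 127 in control and at 11700 and 11600 with PACAP38, a fold of 122, while its other probes, with a control above background on only some arrays, gave 32.3 and 449. Atf3, which responds to stress, was at 106 and 162 in control and at 2220 and 1980 with PACAP38, a fold of 16.0. Csrnp1 had a fold of 13.4, Fosl1 of 11.3 and Cebpb of 5.53. Under normexp and loess Nr4a3 had a fold of 25.3 and Atf3 of 5.44. Klf10, a repressor known from TGF-beta responses, went the other way, from 7400 to 1770 on array 1 and from 5820 to 1740 on array 2, a fold of 0.267. All 18 higher genes were already counted as higher at 60 min, and 16 had passed the limits at 30 min. This list was drawn up with earlier results of these data known, so its count is a description.

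The receptor and the core of the cyclic AMP pathway stayed inside the limits. Adcyap1r1, which encodes PAC1, was at 14700 and 11700 in control and at 13400 and 13200 with PACAP38, a fold of 1.01 with array folds of 0.909 and 1.12. Of 28 detected genes of this list 3 were higher and 0 lower, and the median log2 fold of the 25 measured was 0.19. All 3 dampen cyclic AMP signals: Crem, whose internal promoter gives the repressor ICER, was at 1440 and 2440 in control and at 28800 and 26700 with PACAP38, a fold of 14.8. The phosphodiesterase gene Pde4d was at 585 and 616 in control and at 1660 and 1290 with PACAP38, a fold of 2.44. Pde4a had a fold of 7.30 with control well above background on 1 of 2 arrays. Among those not counted, Creb1 had a fold of 0.600, the catalytic subunit gene Prkaca of 1.23 and the regulatory subunit gene Prkar1a of 1.51. Crem alone of the 3 was counted with normexp and loess.

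Some feedback genes of the ERK pathway were higher. Of 13 detected phosphatase and inhibitor genes 4 were higher and 0 lower, with a median log2 fold of 0.22 over 12 measured, of which 6 lay above control. Dusp1, a nuclear MAP kinase phosphatase, was at 172 and 249 in control and at 5050 and 4550 with PACAP38, a fold of 23.2. Errfi1, which binds and inhibits the EGF receptor, was at 2070 and 1760 in control and at 30400 and 32400 with PACAP38, a fold of 16.4. Dusp2 had a fold of 11.2 and Dusp5 of 6.69, while Dusp6, another ERK phosphatase, had a fold of 1.48 and was not counted. Rgs2, which speeds the turnover of GTP on Gq, was well above background in control on 1 of 2 arrays, at 30.0 and 27.3, and stood at 7580 and 7790 with PACAP38. Rgs4, of the same family, was lower, from 61900 and 55100 to 27900 and 21200, a fold of 0.417.

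Of 16 detected genes in the list of inducible kinases and tribbles pseudokinases, 10 were higher and 0 lower, and their median log2 fold was 1.63 over 15 measured. Plk2, a Polo-like kinase of synapses, was at 202 and 188 in control and at 3570 and 3450 with PACAP38, a fold of 18.0. Sik1, a salt-inducible kinase that phosphorylates CREB coactivators, was at 1980 and 1680 in control and at 32800 and 29200 with PACAP38, a fold of 16.9. Sgk1, a serum- and glucocorticoid-inducible kinase, was at 80.5 and 74.8 in control and at 498 and 448 with PACAP38, a fold of 6.09. Trib1 had a fold of 13.1, Dclk1 of 9.05, Dyrk3 of 8.29, Camk1g of 5.30, Plk3 of 3.11, Pim3 of 2.84 and Stk40 of 2.38. The value of Dclk1 depended on the probe: 3 others measured in both RNAs gave 4.41, 3.16 and 1.13, the last not counted. With normexp correction and loess 6 of the 10 were still counted: Dclk1, Dyrk3, Pim3, Plk2, Sik1 and Trib1. Among 11 detected inducible Ras-like GTPase genes 4 were higher, Rhob at 3.44, Rnd1 at 2.40, Rhoq at 2.20 and Rasl11a at 3.39, the last with control well above background on 1 of 2 arrays. Rasd2 was lower, at 0.409, and with this correction Rhoq alone of the 4 remained counted as higher.

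Of 27 neuropeptide precursor genes on the array 8 were measured, with a median log2 fold of 0.22, and of these 2 were higher, Gal and Vgf, and 0 lower. With dim controls included 9 of 15 detected genes were higher, but 7 of the 9 were detected through the PACAP38 RNA alone. Gal, the precursor of galanin, was at 112 and 89.0 in control and at 441 and 473 with PACAP38, a fold of 4.57. Vgf, whose product is cut into several peptides, was bright in control at 11800 and 10000 and reached 53400 and 34400, a fold of 3.93. In these 2 genes both RNAs were measured on both arrays. With normexp and loess Gal had a fold of 1.77 and was not counted.

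Vip, the precursor of vasoactive intestinal peptide, was at 22.1 and 57.7 in control, well above background on 1 array, and at 616 and 579 with PACAP38, with array folds of 27.9 and 10.0. Calcb, the precursor of the beta form of calcitonin gene-related peptide, was at 14.9 and 54.1 in control, again above background on 1 array, and at 841 and 942 with PACAP38. Npy, the neuropeptide Y precursor, was at 18.6 and 37.0 in control, above background on 1 array, and at 249 and 177 with PACAP38. These folds therefore rest on a control value near the floor, and the array folds differ by more than 2-fold for each gene, at 56.4 and 17.4 for Calcb and 13.3 and 4.77 for Npy.

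For the other peptide genes neither array read the control well above background. Pdyn, the prodynorphin gene, was at 10.5 and 7.48 in control and at 433 and 296 with PACAP38, at least 11.8-fold higher. Nts, the neurotensin precursor, was at 10.9 and 6.48 in control and at 348 and 257 with PACAP38, at least 9.96-fold higher. Tac1, the precursor of substance P, was at 13.6 and 15.1 in control and at 291 and 236 with PACAP38, at least 8.63-fold higher. Adcyap1, the gene of PACAP itself, was at 48.7 and 18.7 in control and at 210 and 221 with PACAP38, at least 6.30-fold higher by the mean of both arrays, with array folds of 4.31 and 11.8 and bounds of 2.62, 2.78 and 2.77 on its other 3 probes. These genes came from a reading below the floor to a signal well above background in both dye orientations. Their bounds hold for the processed intensities only. With normexp and loess the folds were 2.02 for Pdyn, 1.81 for Nts, 1.71 for Tac1 and 1.34 for Adcyap1. Peptide genes that were measured but not counted included Calca with a fold of 1.00, Cck with 1.02, Pomc with 1.12 and Adm, the adrenomedullin gene, with 1.22. Only Vgf and Tac1 of the 9 had been counted at 60 min, and with normexp and loess 4 of the 9 were counted: Calcb, Pdyn, Vgf and Vip.

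**Figure D2:**
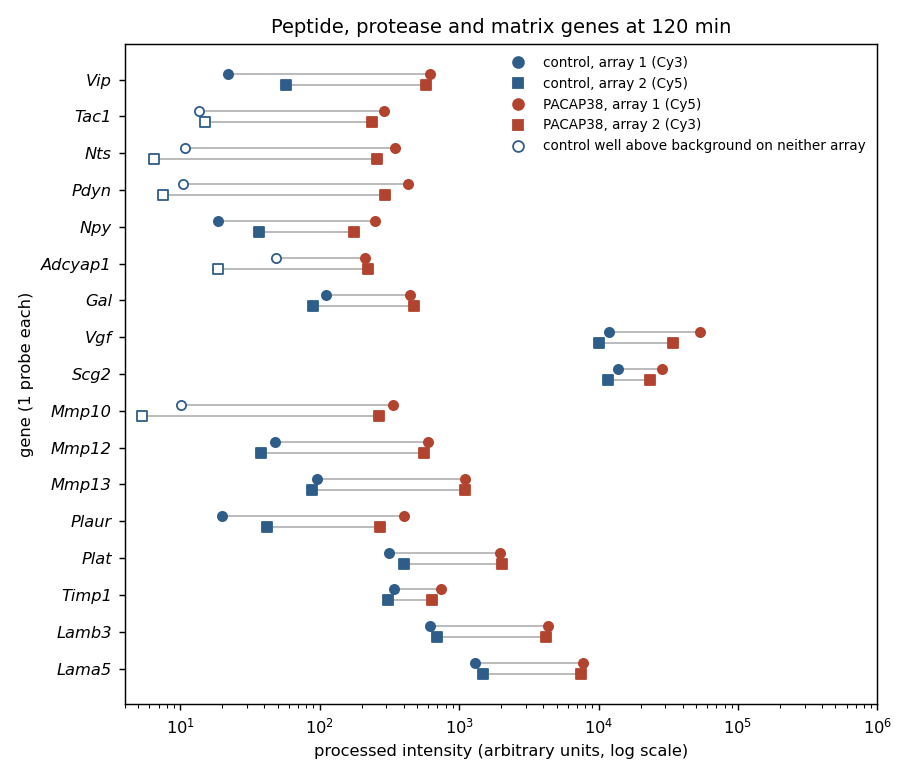
Processed intensity (arbitrary units, log scale) of 17 peptide, protease and matrix genes at 120 min, with 1 probe per gene on the y axis. Blue marks are control and red marks PACAP38, circles array 1 and squares array 2, and open blue marks show a control well above background on neither array. All 17 genes were chosen from those counted as higher, so red marks to the right of blue ones are set by the counting rule.

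Genes of the machinery that stores and releases these peptides came next. All 10 measured granin and prohormone processing genes lay above control, with a median log2 fold of 0.38 beside -0.08 over all measured genes, but only Scg2 was counted. Scg2, encoding secretogranin II of dense-core vesicles, was at 13800 and 11600 in control and at 28300 and 23500 with PACAP38, a fold of 2.04. Pam, which amidates peptides, had a fold of 2.0 and lay just outside the limit with 1.96 on array 2, and Chga, the chromogranin A gene, had 1.35. None of these genes was counted with normexp and loess.

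Of 17 detected genes for catecholamine synthesis, storage and lineage, 1 was higher. Gch1, whose enzyme makes the cofactor of tyrosine hydroxylase, was at 3300 and 3690 in control and at 11600 and 15000 with PACAP38, a fold of 3.79. Th, the rate-limiting enzyme itself, was at 71000 and 89100 in control and at 153000 and 135000 with PACAP38, a fold of 1.81 that missed the limit on array 2. Dbh, dopamine beta-hydroxylase, had array folds of 3.03 and 1.83 and was not counted for the same reason. Among 22 detected exocytosis genes Syt4 and Vamp1 were higher, and the median log2 fold of the list was 0.20. Vamp1 had a fold of 2.37, but 0.829 on its other probe, and it was not counted with normexp and loess (1.44).

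Some genes that act outside the cell on matrix and plasminogen were higher. Of 15 detected pericellular protease and inhibitor genes 6 were higher and 1 was lower, but Mmp10, Mmp12 and Plaur were detected through the PACAP38 RNA alone. Over the 10 measured genes the median log2 fold was 0.16, and 6 lay above control. Mmp13, a collagenase, was at 95.6 and 88.2 in control and at 1110 and 1110 with PACAP38, a fold of 12.1. Plat, the tissue plasminogen activator, was at 316 and 402 in control and at 1950 and 2040 with PACAP38, a fold of 5.61. Timp1, an inhibitor of metalloproteinases, was at 339 and 311 in control and at 741 and 637 with PACAP38, a fold of 2.12. In these genes both RNAs were measured on both arrays and the folds of the arrays were close.

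Mmp10, a stromelysin, was at 10.2 and 5.36 in control and at 336 and 268 with PACAP38, at least 10.0-fold higher. Mmp12, the macrophage elastase, was at 47.9 and 38.1 in control and at 601 and 563 with PACAP38, and the control was well above background on 1 array. Plaur, the receptor of urokinase, was at 20.0 and 41.9 in control and at 400 and 271 with PACAP38, again with control above background on 1 array. Mmp11 went the other way, from 251 and 199 to 111 and 81.7, a fold of 0.425. The gelatinase Mmp2 had a fold of 1.11 and the membrane-bound Mmp14 of 0.773, and neither was counted. With normexp and loess 3 of the 6 stayed counted as higher, Mmp12, Mmp13 and Plat, and Mmp11 was not counted.

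Among integrins, collagens and laminins, 52 of 80 genes were well above background in neither RNA on either array, and 4 of 19 detected genes were higher. Over the 15 measured genes the median log2 fold was 0.22, and 11 lay above control. Lamb3, a laminin chain of epithelia, was at 618 and 689 in control and at 4320 and 4190 with PACAP38, a fold of 6.52. Lama5, another laminin chain, was at 1300 and 1480 in control and at 7710 and 7540 with PACAP38, a fold of 5.50. Col6a5, a collagen VI chain, and Col7a1, the collagen of anchoring fibrils, had controls below the floor and were detected through the PACAP38 RNA alone. By the mean of both arrays Col6a5 was at least 10.1-fold higher, with a fold of 8.94 on array 1. The bound for Col7a1 was 6.41-fold. Itgb1, the shared beta chain of many integrins, had a fold of 1.29. With normexp and loess Lama5 and Lamb3 stayed counted and the collagen genes did not.

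Other ligands, receptors and their intracellular partners gave shorter lists. Of 28 detected genes of the activin, TGF-beta and BMP pathway 5 were higher and 1 lower. The median log2 fold of the 26 measured was -0.33, and 10 lay above control. Besides Inhba, Fst, the follistatin gene, was at 17.5 and 32.2 in control and at 853 and 612 with PACAP38. By the mean of both arrays Fst was at least 20.6-fold higher, with array folds of 48.8 and 19.0. Under normexp and loess its fold was 2.33. Skil, a Smad corepressor, had a fold of 5.49, Smad1 of 2.97 and Bambi, a decoy receptor, of 2.68, while the activin receptor gene Acvr2b was lower at 0.362. Hbegf, an EGF receptor ligand, had a fold of 2.53, and it and Il6 were the 2 higher genes of 11 detected among other growth factors and cytokines. Il6 was at 48.3 and 6.34 in control and at 155 and 213 with PACAP38, at least 5.41-fold higher, with array folds of 3.21 and 33.6 that differed more than those of the genes above. Hbegf (1.7), Il6 (1.5), Skil (1.9) and Acvr2b (0.746) were not counted with normexp and loess.

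Pspn, the persephin gene, had a fold of 2.44 and Ntf4, the neurotrophin-4 gene, of 0.378, the 2 counted genes of 11 detected in the neurotrophin and GDNF list. Bdkrb2, the bradykinin receptor, was at 234 and 214 in control and at 1310 and 1190 with PACAP38, a fold of 5.58. Gabrd, a GABA receptor subunit, was at least 4.68-fold higher. Pspn (1.68), Ntf4 (0.722) and Gabrd (1.45) were not counted with normexp and loess. Of 110 neurotransmitter receptor genes, 78 were well above background in neither RNA.

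Counted cell cycle genes were mostly lower. Of 43 detected genes 7 were lower and 1 higher, the median log2 fold of the 42 measured was -0.29 beside -0.08 over all genes, and 8 of 42 lay above control. E2f8, a repressor of the E2F family, was at 4210 and 3740 in control and at 845 and 866 with PACAP38, a fold of 0.216. Cdc6, which loads the replicative helicase, was at 370 and 322 in control and at 101 and 96.8 with PACAP38, a fold of 0.286. Plk1, a mitotic kinase, was at 6850 and 6640 in control and at 2650 and 2370 with PACAP38, a fold of 0.372. All of these were lower on both arrays by similar amounts.

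Cdt1, the partner of Cdc6, had a fold of 0.369, the mitotic kinase Aurka of 0.412, cyclin E1 (Ccne1) of 0.443 and Cdkn2d, an inhibitor of CDK4 and CDK6, of 0.330. Cdkn1a, the p21 inhibitor, was the higher one, from 18200 and 19600 to 58500 and 51300, a fold of 2.90. Ccnd1 had a fold of 0.905, Pcna of 1.21, Mki67 of 0.716, Cdk1 of 0.604 and Ccna2 of 0.561, and these were not counted. None of the 8 counted genes had been counted at an earlier time. With normexp and loess 4 of the 7 lower genes stayed counted: Ccne1, Cdkn2d, E2f8 and Plk1.

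Survival genes moved in both directions. Of 29 detected genes in the list of survival and death genes, which holds Bcl2 family members and Gadd45 genes, 6 were higher and 4 lower, and the median log2 fold of 27 measured was 0.04. Mcl1, an antiapoptotic member, was at 688 and 602 in control and at 2450 and 2400 with PACAP38, a fold of 3.77. Of the lower genes 3 are proapoptotic BH3-only members: Bik was at 6120 and 5370 in control and at 1140 and 1050 with PACAP38, a fold of 0.191, Bbc3, encoding Puma, had a fold of 0.291 and Hrk one of 0.304. Another BH3-only gene, Bcl2l11, which encodes Bim, was higher, from 506 and 535 to 1410 and 1170, a fold of 2.47. The lower gene that is not of the Bcl2 family, Sesn1, a stress-induced regulator of mTORC1, had a fold of 0.209. Gadd45b was higher at 3.66 and Gadd45g at 3.05. Bax had a fold of 0.843 and Bcl2l1 of 0.623, and neither was counted. Bcl2l11 (1.8) and Sesn1 (0.587) were not counted with normexp and loess, which left 5 higher and 3 lower genes of the list.

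Stress and redox genes were higher in small numbers. Of 29 detected genes of the unfolded protein and amino acid response, 3 were higher, Atf3, Ppp1r15a and Dnajb9, and the median log2 fold was 0.33. Ppp1r15a, encoding Gadd34, which directs a phosphatase to the translation factor eIF2-alpha, was at 1340 and 2000 in control and at 12500 and 8940 with PACAP38, a fold of 6.46. Dnajb9, a chaperone of the endoplasmic reticulum, had a fold of 3.41. Other markers of the response stayed inside the limits, with folds of 1.24 for Ddit3, 1.26 for Hspa5, 1.37 for Trib3, 0.949 for Asns and 0.739 for Herpud1.

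Bag3, a cochaperone of selective autophagy, was at 11800 and 11200 in control and at 75500 and 69400 with PACAP38, a fold of 6.30. The small heat shock protein genes Hspb1 and Hspb8 had folds of 3.1 and 2.7 and Hspa4l one of 2.82, the 4 higher genes of 29 detected in the heat shock list. Srxn1, which repairs oxidized peroxiredoxins, was at 164 and 196 in control and at 1660 and 1340 with PACAP38, a fold of 8.32. Gclc, of glutathione synthesis, had a fold of 4.37 and Txnrd1, thioredoxin reductase, of 2.30. Txnip, the inhibitor of thioredoxin, was lower, from 910 and 914 to 180 and 116, a fold of 0.158. With normexp and loess Srxn1 and Txnip stayed counted while Gclc, Txnrd1 and Hspa4l did not.

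Of 13 detected genes of the Myc network and polyamine list 3 were higher and 1 lower. Odc1, the first enzyme of polyamine synthesis, was at 10100 and 10100 in control and at 32500 and 29100 with PACAP38, a fold of 3.06. Azin1, which protects it from degradation, was at 3330 and 2600 in control and at 12100 and 10500 with PACAP38, a fold of 3.83. Mxd3, a Myc antagonist, was lower at 0.324. Of 22 detected mRNA decay factor genes 2 were higher, Btg2 and Btg1. Btg1, an antiproliferative partner of the deadenylase complex, was at 7560 and 8270 in control and at 50800 and 44400 with PACAP38, a fold of 6.01. Stard4, a sterol carrier, had a fold of 2.60 and the cholesterol exporter Abcg1 one of 0.437, the 2 counted genes of 26 detected for cholesterol. Pfkfb4, a regulator of glycolysis, was at least 9.43-fold higher and the 1 counted gene of 27 detected in the glycolysis list. Of 77 detected solute carrier genes 8 were higher and 3 lower. Slc4a11, a plasma membrane ion transporter of the cornea, was at 221 and 238 in control and at 1420 and 1150 with PACAP38, a fold of 5.56. Slc25a25, a mitochondrial ATP and magnesium carrier, was at 4390 and 4450 in control and at 23600 and 24200 with PACAP38, a fold of 5.40. Of the genes before the carriers, Mxd3, Stard4 and Pfkfb4 were not counted with normexp and loess. Slc25a42 was lower at 0.384, Slc25a32 at 0.424 and Slc25a51 at 0.431. No other probe of the last 2 genes was counted: that of Slc25a32 gave 0.601, and those measured for Slc25a51 gave 0.687, 0.713 and 0.733. With normexp and loess Slc25a25, Slc4a11 and Slc7a8 stayed counted, the last with a fold of 2.51, and none of the 3 lower ones.

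Zinc finger genes, taken by the prefixes of their names, formed the largest list. Of 190 detected, 26 were lower (13.7%, beside 16.3% of the cell cycle genes) and 6 higher, the median log2 fold of 169 measured was -0.46, and 41 of 169 lay above control. Zbtb8a was at 435 and 408 in control and at 117 and 83.8 with PACAP38, a fold of 0.235. Zbtb26 was at 1020 and 948 in control and at 269 and 284 with PACAP38, a fold of 0.282. Zfp90 was at 413 and 350 in control and at 58.1 and 65.1 with PACAP38, which was well above background on 1 of 2 arrays. On the other side stood 6 genes, among them Zfp347, from 1090 and 1050 to 9070 and 8750, a fold of 8.34, and Zkscan5 with 4.2. The lower count rested on the processed intensities: with normexp and loess 1 zinc finger gene, Zbtb45, was lower and 3 were higher. The median of the list was then -0.19, beside -0.24 for cell cycle genes, and with median centring these were -0.33 and -0.43.

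The list of genes for microtubules, neurofilaments and the growth cone held no counted gene. Of 23 detected 0 were counted in either direction, and their log2 folds ran from -0.32 to 0.35. Gap43, of growth cones, had a fold of 0.934, Stmn2 of 1.09, Nefl of 1.19 and Dpysl2, encoding CRMP2, of 0.960. Pik3r1, a regulatory subunit of PI 3-kinase, was lower at 0.450. Of 72 axon guidance genes, 37 were well above background in neither RNA, and 1 was counted, Sema7a, at least 3.24-fold higher. Tpm4, a tropomyosin, was at 1230 and 1230 in control and at 6020 and 4980 with PACAP38, a fold of 4.44. Mrtfa, a coactivator of Srf, was lower at 0.406, and the potassium channel subunit Kcnj11 at 0.375. Of 132 voltage-gated and potassium channel genes 87 were well above background in neither RNA, and 2 were higher, Cacna1s and Scn11a, both dim. Tpm4 was still counted with normexp and loess, while Pik3r1, Sema7a, Mrtfa, Kcnj11, Cacna1s and Scn11a were not.

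Large housekeeping complexes gave no counted gene. The 75 detected genes of cytosolic ribosomal proteins had a median log2 fold of 0.01, the 71 of oxidative phosphorylation -0.03 and the 37 of the proteasome -0.04, each with 0 counted. The 15 reference genes in common use had 0 counted and a median of 0.17. Ribosome biogenesis genes had a median of -0.20 over 37 measured, with 1 lower, Utp15 at 0.423, which was not counted with normexp and loess. Normexp with median centring, in place of the processed values, moved the median of all measured genes to -0.21 and turned 21 of the 31 list medians above 0 to below 0, while normexp with loess turned 1, so a list median says little except against that of all genes.

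The lists of clock genes, of NF-kappa-B and Socs feedback genes, and of Wnt genes each held counted genes in both directions. Per1, a clock repressor, was at 162 and 227 in control and at 1280 and 923 with PACAP38, a fold of 5.68. Nfil3, a repressor of clock output genes, was at 470 and 625 in control and at 4120 and 3590 with PACAP38, a fold of 7.09, Cry2 had 3.84 and Bhlhe41 had 2.40. Nr1d1, a nuclear receptor that represses Bmal1, was lower, from 108 and 156 to 38.2 and 8.16, with PACAP38 well above background on 1 of 2 arrays. Among 21 detected NF-kappa-B and Socs genes Rel had a fold of 3.70, Nfkb1 of 3.31, the receptor subunit Il6r of 2.22 and Stat5a, a STAT factor, of 0.416. Lef1, a transcription factor of the Wnt pathway, was at 3340 and 3030 in control and at 14400 and 12500 with PACAP38, a fold of 4.22. Of 25 detected Wnt genes 1 was higher and 3 were lower, and the median log2 fold of the 19 measured was -0.24. Among the lower ones were the receptor gene Fzd9 at 0.431 and Fzd2, with PACAP38 well above background on 1 of 2 arrays, at 0.262. With normexp and loess Per1, Nfil3, Bhlhe41, Nfkb1 and Lef1 stayed counted as higher, and no lower gene of these 3 lists was counted.

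**Figure D3:**
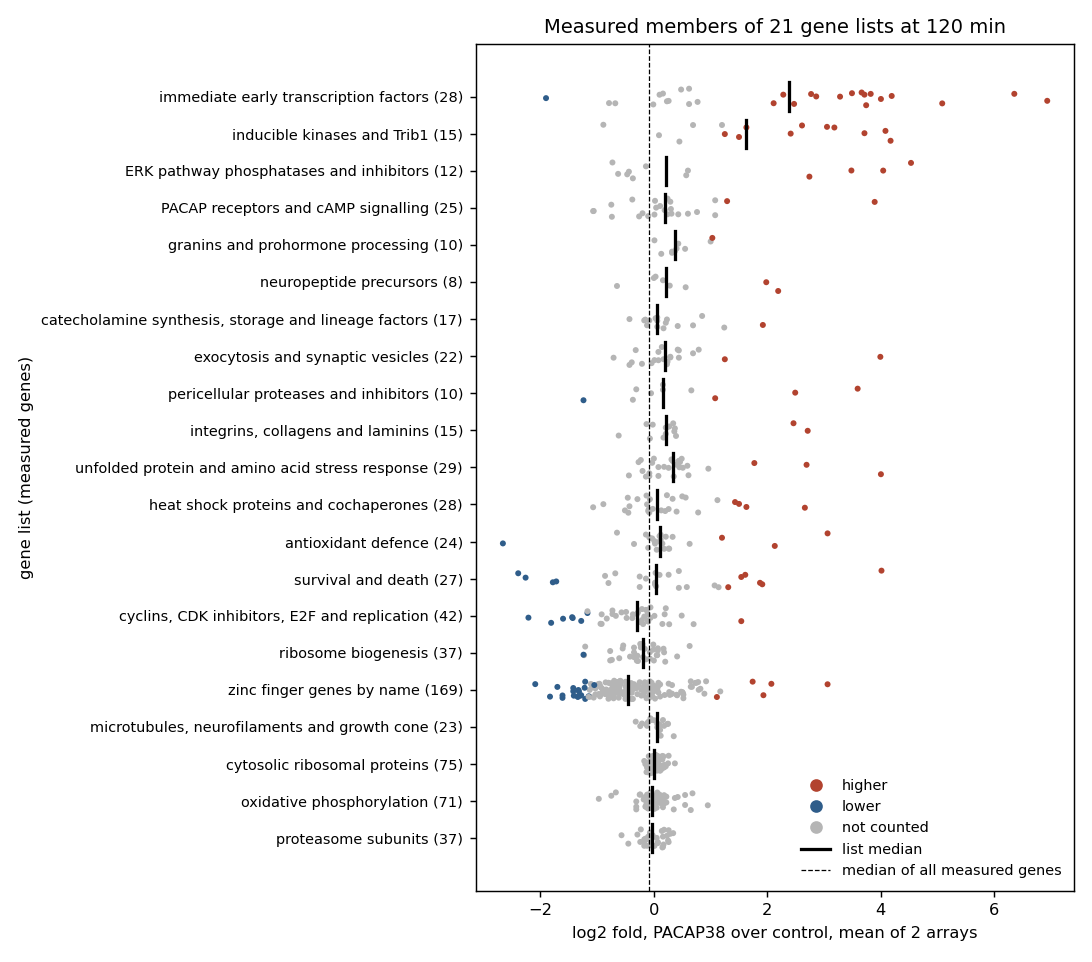
Log2 fold of PACAP38 over control (x axis, mean of 2 arrays, no unit) for the measured genes of 21 lists (y axis, number measured in parentheses). Each point is 1 gene, red if higher, blue if lower and grey if not counted. Black bars are list medians and the dashed line is the median of all measured genes, -0.08. Of the lists drawn, immediate early transcription factors (2.38) and inducible kinases (1.63) have the highest medians, also with both normexp settings. Zinc finger genes (-0.46) have the lowest with the processed intensities, while with normexp the median of cell cycle genes lies below theirs.

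Most of the genes counted at 120 min had not been counted in the same direction earlier. Of the 420 higher genes, 155 (36.9%) were also counted as higher at 60 min, when 170 of 9588 detected genes (1.77%) were higher, and 265 (63.1%) were counted as higher at no earlier time. Of the 431 lower genes, 37 (8.58%) were also lower at 60 min, when 0.834% of detected genes were lower, and 394 (91.4%) were lower at no earlier time. The pools of 60 min came from other cells with their own control, and both times shared a slide.

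Most of these genes were already on the same side of control at 60 min. At that time the higher genes measured at both times had a median log2 fold of 0.92, against 1.73 at 120 min, and 301 of 313 lay on the same side of 1. For the lower genes these medians were -0.46 and -1.34, and 372 of 375 lay on the same side. These genes were chosen for passing 2-fold at 120 min, so a larger size at that time is largely built in. Il1rn went from a fold of 2.32 at 60 min to 17.4, Dusp2 from 2.43 to 11.2, Sgk1 from 1.22 to 6.09, and Metrnl, encoding the secreted factor meteorin-like, from 1.11 to 5.38. Giot1, a zinc finger gene known from ovary, went from 0.987 to 6.84, and Srrm4, which controls neuronal microexon splicing, from 1.53 to 5.93. Among lower genes Traf5 went from 0.545 to 0.115, P2ry6 from 0.699 to 0.166 and Dnmt3b from 0.805 to 0.211.

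A smaller set had been further from control before. Egr1, an immediate early zinc finger factor, had a fold of 60.7 at 30 min, still 48.6 after 60 min, and 9.72 at the last time. Egr4 went from 36.5 at 60 min to 13.1, Btg2, an antiproliferative cofactor of mRNA decay, from 58.4 to 25.3, and Arc, a synaptic immediate early gene, from 4.71 to 2.15. Of the genes counted at 60 min, 19 of 174 higher and 43 of 80 lower ones were no longer counted in that direction at 120 min. Among them were Jun with folds of 4.02 and 1.53, Rasd1 with 5.17 and 1.73, Nfkbia with 0.284 and 0.590, and Zfp472 with 0.182 and 0.623 at 60 and 120 min.

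**Figure D4:**
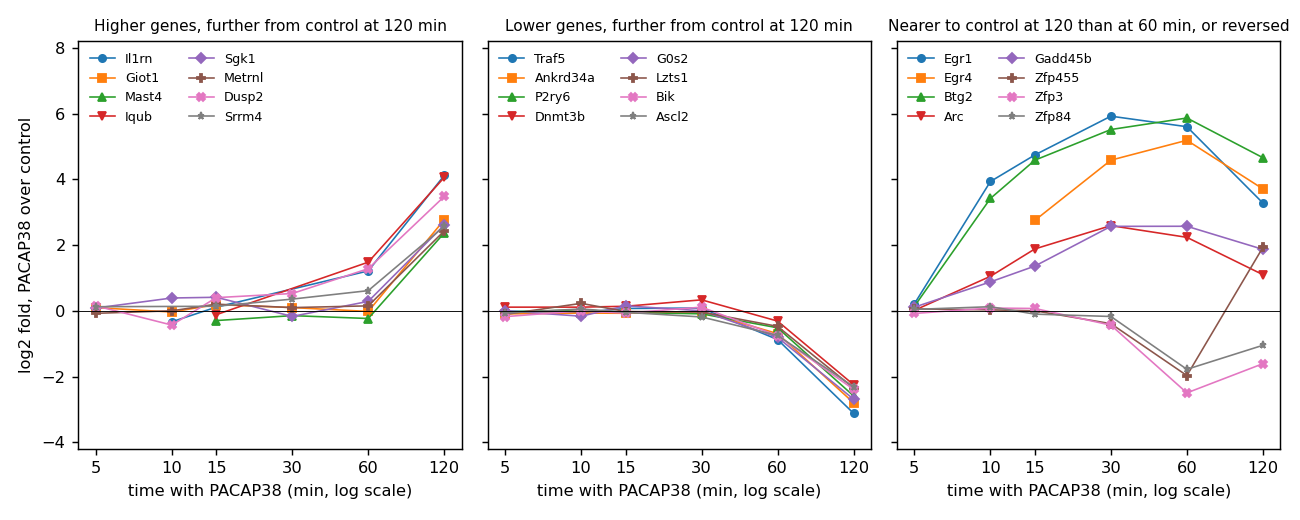
Log2 fold of PACAP38 over control (y axis, no unit) against time with PACAP38 (x axis, min, log scale) for 24 genes in 3 panels, each point the mean of the 2 arrays of 1 pair of pools. Points where either RNA was not well above background on both arrays are left out; the lines in the left and middle panels move away from 0 after 60 min, while on the right Egr1 and others return towards 0 and Zfp455 changes side.

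The promoters of the higher genes were searched for short motifs of the factors named above, in the 250 bases before each start of the RefSeq promoter table on build GRCr8. Of the 420 higher genes 343 had a promoter there, with 394 starts, and of the lower genes 353 had one, with 427 starts. The cyclic AMP response element (CRE), TGACGTCA, read the same on both strands, was found in 34 of 394 promoters of higher genes (8.63%) and in 11 of 89 promoters of the higher genes with a fold of 8 or more, dim controls included (12.4%). It was found in 4 of 427 promoters of lower genes (0.937%), in 205 of 7334 promoters of the other measured genes (2.80%) and in 531 of all 33469 promoters (1.59%). Within 100 bases of the start the shares were 5.58% for higher, 0.937% for lower and 1.88% for other measured genes. These are counts of letters, and whether a site is bound was not measured.

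The windows below show the CRE, in capitals, in promoters of higher genes from several of the groups above, all 5′ to 3′ on the strand of the gene. They were chosen after their values were seen. The order is Btg2 (chr13:48087848-48087927, minus strand, fold 25.3), Dusp1 (chr10:17184693-17184772, plus strand, fold 23.2), Plk2 (chr2:43702434-43702513, plus strand, fold 18.0), Crem (chr17:58984705-58984784, plus strand, fold 14.8), Ppp1r15a (chr1:105139619-105139698, minus strand, fold 6.46), Vgf (chr12:25277067-25277146, minus strand, fold 3.93) and Scg2 (chr9:88256946-88257025, minus strand, fold 2.04).
Btg2: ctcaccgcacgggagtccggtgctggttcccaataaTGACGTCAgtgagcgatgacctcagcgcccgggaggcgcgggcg
Dusp1: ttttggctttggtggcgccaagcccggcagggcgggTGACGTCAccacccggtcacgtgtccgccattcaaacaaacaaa
Plk2: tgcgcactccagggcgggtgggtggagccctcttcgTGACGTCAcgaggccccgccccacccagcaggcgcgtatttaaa
Crem: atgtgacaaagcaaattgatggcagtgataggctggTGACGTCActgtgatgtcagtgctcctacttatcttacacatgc
Ppp1r15a: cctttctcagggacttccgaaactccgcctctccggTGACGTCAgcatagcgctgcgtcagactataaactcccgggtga
Vgf: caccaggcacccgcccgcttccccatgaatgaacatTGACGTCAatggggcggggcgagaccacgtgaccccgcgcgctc
Scg2: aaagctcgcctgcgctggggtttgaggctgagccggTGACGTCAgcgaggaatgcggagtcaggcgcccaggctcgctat

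Relative to the start of transcription in the table, the first base of the CRE lay at -201 in Btg2, -124 in Dusp1, -66 in Plk2, -56 in Crem, -66 in Ppp1r15a, -90 in Vgf and -123 in Scg2. The Crem start shown is 1 of 2 starts of this gene with a CRE. In all 32 higher genes held the motif, among them also Il6, Rcan1, Skil, Slc25a25, Lamb3, Vamp1 and Ier2. Rcan1, an inhibitor of calcineurin, was at 2630 and 1730 in control and at 15100 and 10500 with PACAP38, a fold of 5.90.

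The CRE half-site TGACG, which every CRE contains, was found on either strand in 42.4% of the promoters of higher genes, 20.8% of lower, 29.6% of other measured genes and 18.2% of all promoters. The AP-1 site TGANTCA, where N is any base, was found in 7.87% of higher, 2.81% of lower and 4.08% of other measured genes, and in 6.34% of all promoters. The Egr site GCGTGGGCG was found in 2.03, 0.234, 0.995 and 0.478% in the same order, and the 8 promoters of higher genes with it belonged to 4 genes. Counted by gene the shares were 1.17% of higher and 1.05% of other measured genes. Within 100 bases of the start this site was in 0.254% of promoters of higher and 0.504% of those of other measured genes. The Nr4a site AAAGGTCA was found in 0.508, 1.17, 0.695 and 1.24%, and the CArG box of Srf in 1.52, 0.703, 1.1 and 1.5%. The median GC content was 60.4% for higher, lower and other measured genes and 51.2% for all promoters, so the share over all promoters is not matched in base composition.

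**Figure D5:**
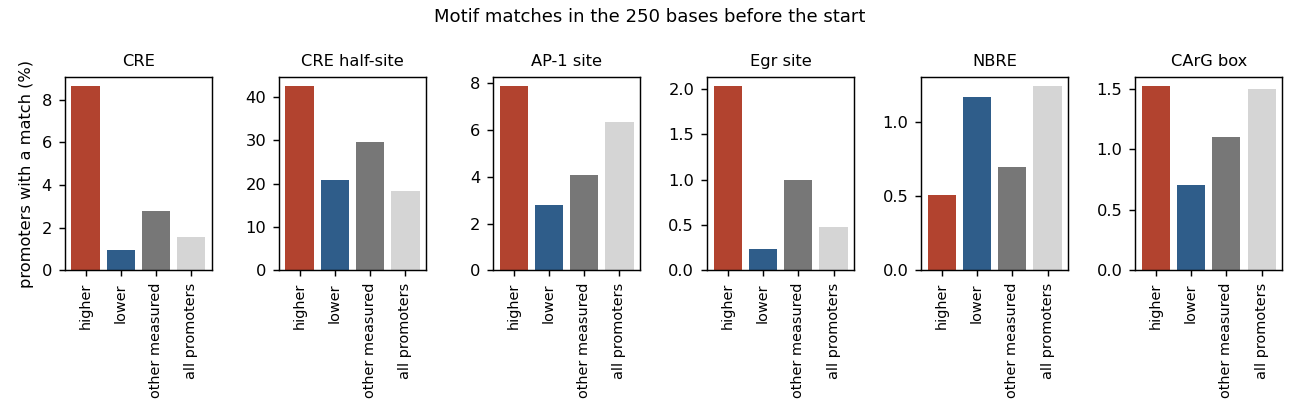
Share of promoters (%) with at least 1 match of 6 motifs in the 250 bases before the start, for higher genes, lower genes, other measured genes and all promoters at 120 min. Each panel has its own y axis from 0; the CRE was found in 8.63% of promoters of higher genes and in 0.937% of those of lower genes.

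The identity of the cells was checked with marker genes. Of the 10 chromaffin markers on the array all were well above background in both RNAs and 0 were counted, and their summed intensity was 328000 and 380000 in control and 404000 and 430000 with PACAP38. The 4 endothelial and the 4 adrenal cortex markers were above background in neither RNA. Of 6 fibroblast markers 3 were above background in each RNA, with Col3a1 and Lum in neither, and sums of 401 and 342 in control and 288 and 269 with PACAP38. Of 5 leukocyte markers 1, the lysosomal gene Cd68, was above background in both RNAs, with Ptprc in neither, and the sums were 243 and 237 in control and 458 and 401 with PACAP38. Of 6 Schwann cell and glial markers 1 was above background in control and 0 with PACAP38, and Sox10 and S100b were in neither. Of these markers 0 were counted in either direction, and their part in the counts above was not tested. The 4 epithelial markers were above background in both RNAs, with sums of 136000 and 123000 in control and 156000 and 129000 with PACAP38, and 0 were counted.

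Probes without a gene symbol also changed. Of 15989 such probes with a value 202 were higher and 132 lower, and they are not named here. Over all probes with a value 799 (1.95%) were higher and 626 (1.53%) lower. Where a higher gene had further detected probes, 162 of 165 lay on the same side and 127 were counted themselves. Of 122 further detected probes of lower genes 122 lay on the same side and 45 were counted. Further probes that were not counted gave 1.07 for Camk1g, 1.1 for Lamb3, 0.673 for Lin28a and 0.859 for Hrk, each well above background in only part of the readings, and 0.671 for Rgs4, 0.721 for Rasd2 and 0.723 for Acvr2b, measured in both RNAs.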

How the data were processed

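Cy3 and Cy5 signals of the Agilent whole rat genome arrays were extracted by the authors with Feature Extraction (version 12.0.3.1 in the file headers and 11.0.1.1 in the submitters' processing notes). The deposited processed intensity of each dye was background-subtracted and LOWESS dye-normalized by the authors' software. The authors' software also gave each log ratio its deposited p-value, which covers the error of 1 spot on 1 array. The deposited series table holds the log10 of Cy5 over Cy3, not turned for dye. The deposited flags mark control spots, outliers and spots well above background.

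From these intensities PACAP38 over control was computed on each array and turned by dye. The 1639 control spots and the 230 and 237 outlier spots were left out of 45018 on each array, spots of 1 probe were averaged on the log2 scale, and a gene's fold is the antilog of the mean log2 ratio over both arrays. Of 41012 probes, 20766 were named by RefSeq accession, 4127 by symbol and 126 by synonym, and 15993 had no symbol. A gene is given by its brightest probe, a 60-base oligonucleotide annotated by the array's maker on rat build rn4. Bounds compare the mean of the bright RNA with the dim probe's own signal or with the lowest signal flagged well above background, whichever is higher, using the processed intensities after Aquantile scaling between arrays. Precision is limited by the number of arrays and shown by both folds.

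Members and the 44 gene lists were chosen with earlier results of these data known. The genes named were drawn from the 25 largest and 25 smallest folds of measured genes, the 10 largest bounds in each direction, counted list members, other list members with their values, markers, and the 15 largest rises and drops since 60 min. Not every gene of these sets is named. The list of aminoacyl-tRNA synthetases matched 2 names and is not described. No test was made across samples, since 1 pair of pools leaves no degrees of freedom. Alternatives were each array alone, other limits on fold and p-value, a filter on dim probes, normexp correction (offset 50) with loess or median centring, the deposited series table, outlier spots kept, other probes per gene and a shorter promoter window. The software was limma 3.58.1 under R 4.3.3 for the normexp settings and bounds, and otherwise numpy 2.4.6, pandas 2.3.3 and matplotlib 3.10.9 under Python 3.11.15.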

Additional observations from a re-analysis of the deposited data

Results flagged for a closer look

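Zfp455, a zinc finger gene, was counted in opposite directions at 60 and 120 min. At 60 min its fold was 0.318 on the array with Cy5-labelled PACAP38 RNA and 0.205 on the other, a mean of 0.255. At 120 min its intensities were 309 in control and 1100 with PACAP38 on array 1 and 290 and 1180 on array 2, with folds of 3.58 and 4.07 and a mean of 3.82. Each time is 1 pair of pools with its own control, and the difference between the times was not tested.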

How the results depend on the processing

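The number of counted features moved with the rule and with the background correction and normalization, while the 235 followed genes that were counted kept their side of control with both normexp settings and with the median over a gene's probes. Their side on each array alone is fixed by the counting rule, and the deposited table and outlier spots kept gave the same calls, so these 4 settings say nothing about stability. For a gene with 1 detected probe the median over probes is fixed too. Among all counted genes 127 higher and 111 lower ones had another detected probe. Each array alone gave 1390 to 1518 higher and 1316 to 1631 lower probes, and 607 to 678 higher and 761 to 886 lower genes, against 799, 626, 420 and 431 on both arrays. In the same order, a limit of 3-fold gave 453, 140, 244 and 101, a limit of 1.5-fold gave 1243, 1580, 632 and 1103, normexp with loess gave 294, 121, 200 and 98, and normexp with median centring gave 179, 109, 124 and 90. Of the 420 higher genes 198 (47.1%) and of the 431 lower genes 98 (22.7%) were counted with normexp and loess. The size of the followed log2 folds changed by -0.85 at the median with normexp and loess and by -0.91 with median centring; the cause was not tested. No p-value limit, the geometric mean fold, dim probes left out, the deposited series table, outlier spots kept and the median over a gene's probes each gave counts within 1.5 times those reported. Signal over background limits the rest: 7274 of 17700 genes were well above background in neither RNA on either array. No paired analysis was possible because both arrays hold the same 2 pools, so replicate numbers name dye orientations and not cultures.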
